A study of Mus musculus with 14 samples.

Results

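The 10 genes described here belong to the circadian clock: *Clock*, *Per1*, *Per2*, *Per3*, *Cry1*, *Cry2*, *Bhlhe40*, *Bhlhe41*, *Dbp* and *Tef*. They were taken by gene symbol from a table of 54332 genes, and all 10 were in it. Their RNA was followed in epidermal stem cells (EpdSCs) sorted from mouse back skin before and after the transcription factor SOX9 was switched on. The hour of day at which the mice were collected is not given in the sources used here, so a level that follows the time of day and a level that follows SOX9 cannot be told apart.

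All 10 libraries came from CD1 mice labelled male that carried a doxycycline-dependent activator under the *Krt14* promoter and a MYC-tagged *Sox9* under its response element (K14rtTA; TRE-myc-Sox9), so the controls carried both transgenes too. Doxycycline began at postnatal day 21, and there were 2 libraries each at D0 (day 21, the control), W1 (day 28), W2 (day 35), W6 (day 63) and W12. The W12 cells came from newborn transgenic skin grafted onto female Nude mice and induced after healing, so graft, host and time cannot be told apart at W12, and age rises with induction at the other timepoints. The cells were sorted as high for CD49f and Ly6A and negative for CD34 and for markers of endothelial, immune, mast or pigment and mesenchymal cells.

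The MYC-*Sox9* transgene was at 89.6 and 45.6 TPM (transcripts per 1e+06 transcripts) at D0 and between 606 and 3414 TPM in the 8 induced libraries. *Krt14*, a keratin of basal keratinocytes, was between 19997 and 37666 TPM in all 10 libraries. D0 replicate 2 went against its male label, since it held *Xist*, the RNA of the inactive X chromosome, at 4.61 TPM while the Y chromosome gene *Ddx3y* was nearly absent at 0.028 TPM. D0 replicate 1 held them at 0.001 and 32.1 TPM. The calls of clock genes against D0 are therefore also given without D0 replicate 2. Those of genes and counts of the other lists are given with it only. Both W12 libraries held *Xist* (5.51 and 3.50 TPM) beside *Ddx3y* (10.97 and 12.87 TPM). Endothelial markers moved with W12: the summed TPM of *Pecam1*, *Vwf*, *Tek*, *Cdh5* and *Kdr* was at most 2.00 in the other 8 libraries and 47.8 and 105 at W12. Of 7 immune markers, *Cd74* stood at 102 and 124 TPM at W12 and at most 26.4 TPM elsewhere, while the general leukocyte marker *Ptprc* was at most 0.33 TPM in any library. Of 6 fibroblast markers, *Dcn* reached 51.2 TPM in W6 replicate 2 and 13.2 and 27.2 TPM at W12, with *Pdgfra* at most 0.19 TPM in any library. The 6 melanocyte markers summed to at most 12.8 TPM. *Cd34*, whose product the sort gated against, was at most 0.38 TPM from D0 to W2 but 2.66 and 5.04 TPM at W6 and 16.5 and 32.0 TPM at W12 (log2 change from D0 4.31 at W12, adjusted p = 5.8e-05). These RNA levels go against a gate that was set on the protein. The part of these cells in the clock gene values was not tested. In bulk RNA of this kind, fewer cells of a type and less RNA per cell cannot be told apart.

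The mammalian clock is a feedback loop in which CLOCK pairs with BMAL1, the product of *Arntl*, to switch on genes that carry an E-box, among them the *Per* and *Cry* genes, whose proteins then shut the pair off. In a second loop, the nuclear receptors REV-ERBα and REV-ERBβ, encoded by *Nr1d1* and *Nr1d2*, repress *Arntl*, while *Dbp* and *Tef* encode activators that carry the rhythm to output genes through D-boxes. Basal cells of the epidermis have a clock of their own, and *Dbp* and *Nr1d1* are among the genes with the widest daily swings in most tissues.

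Over time, the members did not move as a group. Relative to D0, limma on log2(TPM + 1) at an adjusted p under 0.05 found *Bhlhe40* lower at W1, *Tef* higher at W2, and *Clock* higher with *Per1*, *Cry2* and *Bhlhe40* lower at both W6 and W12. Of these calls, only those of *Cry2* at W6 and W12 and of *Per1* at W12 held under every alternative tried. *Dbp*, *Cry1*, *Per2* and *Per3* passed in none of the 6 comparisons made. *Dbp*, *Tef*, *Per1* and *Cry1* differed widely between the 2 replicates of D0 and of W6. The 4 comparisons with D0 share the D0 libraries, so their results are not independent of each other.

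**Figure D1:**
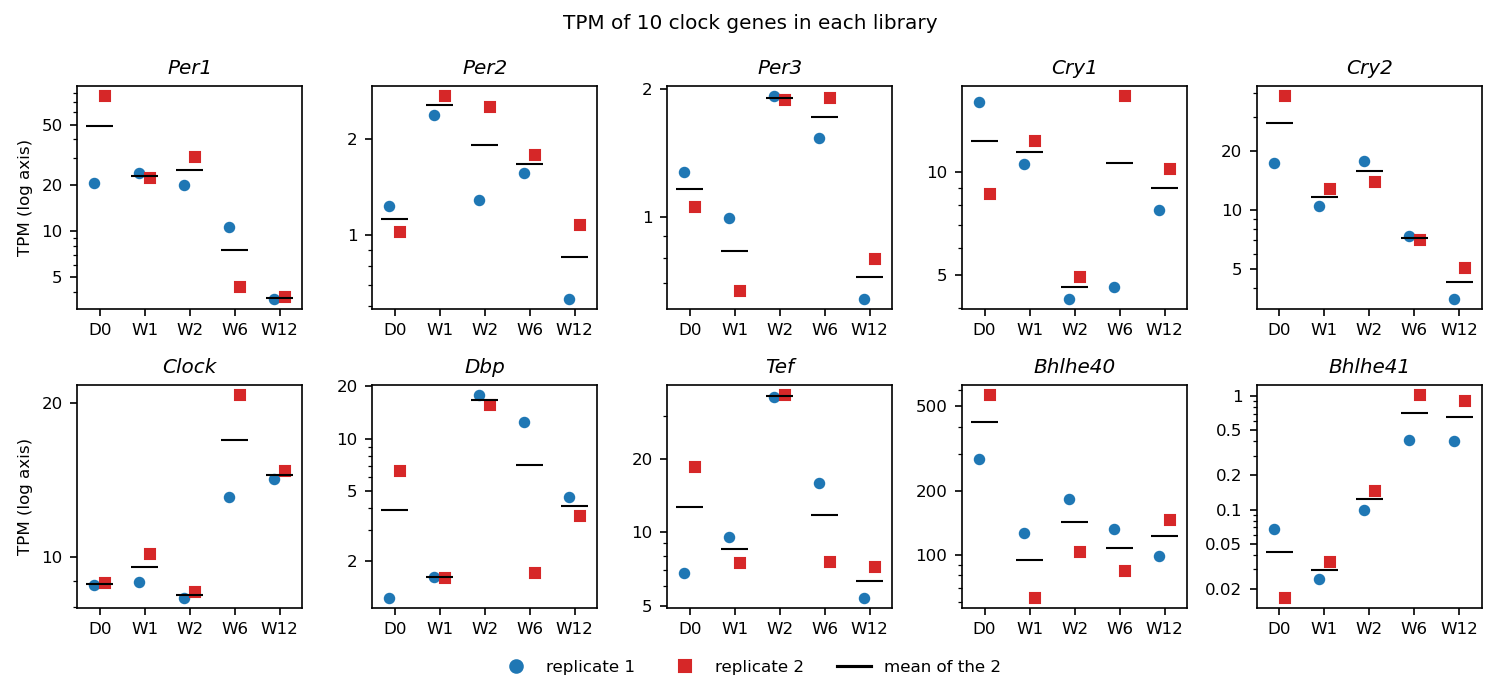
TPM (log axis, scaled per panel) of each of the 10 clock genes in each library against timepoint, with circles for replicate 1, squares for replicate 2 and bars for the mean of the 2. The means of *Per1*, *Cry2* and *Bhlhe40* are highest at D0 and those of *Dbp* and *Tef* at W2. D0 replicate 1 lies between the W2 libraries for *Per1* and *Cry2*. The replicates of *Dbp*, *Tef*, *Per1* and *Cry1* lie far apart at D0 or W6.

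On GRCm38, each member lies on a chromosome of its own except that *Bhlhe40* (chr6:108660629-108666925, plus strand) and *Bhlhe41* (chr6:145858243-145865558, minus strand) share chromosome 6. *Per1* lies at chr11:69095217-69109960 on the plus strand, *Per2* at chr1:91415982-91459324 on the minus strand, and *Per3* at chr4:151003652-151044665 on the minus strand. *Cry1* lies at chr10:85131700-85185064 and *Cry2* at chr2:92403646-92434043, both on the minus strand. *Clock* lies at chr5:76209868-76304792 on the minus strand, *Dbp* at chr7:45705088-45710203 and *Tef* at chr15:81802421-81826863, both on the plus strand.

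Promoters are shown for *Per1*, *Cry2* and *Tef*, which passed the test, for *Cry1*, which split between replicates, and for *Per3*, whose window holds the D-box that the products of *Dbp* and *Tef* bind. RefSeq promoter windows of 300 bases, from 250 before to 50 after the annotated start on GRCm38.p6, were matched for 8 of the 10 members. They were searched on both strands for the E-box CACGTG, its variant CACGTT (the E′-box) and the D-box (TTATGTAA or TTACGTAA). These were present in 7.15%, 4.68% and 1.06% of all 32851 promoter windows. In the sequences below, written 5′ to 3′ on the gene's strand, capitals mark the matches.
Per1, chr11:69098699-69098998, plus strand: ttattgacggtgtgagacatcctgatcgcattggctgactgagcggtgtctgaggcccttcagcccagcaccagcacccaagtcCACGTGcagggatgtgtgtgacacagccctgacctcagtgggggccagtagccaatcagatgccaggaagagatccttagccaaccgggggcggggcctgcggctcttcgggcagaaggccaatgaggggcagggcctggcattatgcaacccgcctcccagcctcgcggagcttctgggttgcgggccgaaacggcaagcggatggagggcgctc
Cry1, chr10:85185005-85185304, minus strand: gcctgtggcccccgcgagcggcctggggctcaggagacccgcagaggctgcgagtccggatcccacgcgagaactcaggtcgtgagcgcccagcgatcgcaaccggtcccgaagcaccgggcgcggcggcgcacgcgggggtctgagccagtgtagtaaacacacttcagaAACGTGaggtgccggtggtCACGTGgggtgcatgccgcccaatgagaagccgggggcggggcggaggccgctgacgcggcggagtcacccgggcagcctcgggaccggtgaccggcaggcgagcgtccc
Cry2, chr2:92434020-92434319, minus strand: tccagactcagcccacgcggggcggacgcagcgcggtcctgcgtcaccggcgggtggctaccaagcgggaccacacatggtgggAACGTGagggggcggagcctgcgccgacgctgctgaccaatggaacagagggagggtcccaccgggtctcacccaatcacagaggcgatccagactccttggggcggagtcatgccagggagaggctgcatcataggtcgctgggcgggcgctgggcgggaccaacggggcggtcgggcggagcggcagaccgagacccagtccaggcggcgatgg
Per3, chr4:151044616-151044915, minus strand: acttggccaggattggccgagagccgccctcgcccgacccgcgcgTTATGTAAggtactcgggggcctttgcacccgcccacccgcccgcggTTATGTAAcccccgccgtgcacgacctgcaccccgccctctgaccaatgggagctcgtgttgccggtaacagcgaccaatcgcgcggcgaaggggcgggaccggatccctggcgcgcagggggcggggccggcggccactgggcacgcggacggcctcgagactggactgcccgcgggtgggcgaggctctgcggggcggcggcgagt
Tef, chr15:81802423-81802722, plus strand: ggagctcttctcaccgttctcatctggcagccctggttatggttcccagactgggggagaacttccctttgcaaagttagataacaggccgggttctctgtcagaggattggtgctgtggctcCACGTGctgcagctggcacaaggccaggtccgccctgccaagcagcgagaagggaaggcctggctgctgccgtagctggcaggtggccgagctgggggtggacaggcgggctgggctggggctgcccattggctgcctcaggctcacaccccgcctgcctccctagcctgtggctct
Positions are those of a match's first base, with 0 at the annotated start. *Per1* held an E-box at −166 and *Tef* one at −127 in the windows shown. Each has a second annotated start, whose window held none of these letters for *Per1* and an E-box at −138 for *Tef*. *Cry1* held an E-box at −60 and an E′-box at −79. *Cry2* held an E′-box at −166, *Per3* D-boxes at −205 and −158, and *Bhlhe41* an E-box at −153. The windows of *Clock* and *Dbp* held none of these letters, which says nothing of sites elsewhere. A match is a description of the letters and not a measured binding site.

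*Clock*, the activator of the loop, was expressed at a steady level until W2 and was higher from W6. It measured 8.82 and 8.92 TPM at D0, 8.97 and 10.2 TPM at W1, and 8.34 and 8.57 TPM at W2. It then measured 13.1 and 20.7 TPM at W6 and 14.2 and 14.7 TPM at W12. Both late groups lay above every earlier library. The log2 change from D0 was 0.82 (SE 0.21, adjusted p = 0.019) at W6 and 0.65 (SE 0.21, adjusted p = 0.037) at W12, and W6 exceeded W2 by 0.89 (SE 0.21, adjusted p = 0.029). Without D0 replicate 2 the changes were as large (0.83 and 0.65) but no longer passed (adjusted p = 0.069 and 0.10). Without W6 replicate 2 the W6 change from D0 was 0.52 (adjusted p = 0.065), and the W12 call was lost without any 1 of its 4 libraries (adjusted p = 0.083 to 0.14), as was that from W2 to W6 without any of its libraries but W6 replicate 1 (adjusted p = 0.083 to 0.16).

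*Per1*, a repressor of CLOCK and BMAL1 that is also known to be induced quickly by light, stress signals and glucocorticoids, fell late in the course. It measured 20.85 and 76.7 TPM at D0, 23.99 and 22.28 TPM at W1, and 20.05 and 30.6 TPM at W2. It measured 10.7 and 4.34 TPM at W6 and 3.64 and 3.72 TPM at W12. Every W6 and W12 library lay below every earlier one. Mean TPM was 6.48-fold lower at W6 (log2 change −2.38, SE 0.55, adjusted p = 0.013) and 13.3-fold lower at W12 (log2 change −3.14, SE 0.55, adjusted p = 0.0026) than at D0. Much of the fold rested on D0 replicate 2: without it the log2 change was −1.47 at W6 (adjusted p = 0.058) and −2.22 at W12, where the call held under all 12 alternatives (adjusted p at most 0.024). Without W6 replicate 2 the W6 change was −1.81 (adjusted p = 0.072). The summed TPM of 10 glucocorticoid-responsive genes, led by the metallothioneins *Mt1* and *Mt2*, was 14928 and 20949 at D0, between 2978 and 4574 from W1 to W6, and 9831 and 8887 at W12. Since these 2 genes make up most of the sum, the counts are the fuller measure: 5 of the 10 were already lower than at D0 at W1 and 5 at W2, where *Per1* did not pass and 4.10% and 6.64% of all genes tested were lower. At W6 and W12 8 were lower in each, with a median log2 change of −1.87 and −1.25, where 14.1% and 25.1% of all genes tested were lower. *Sgk1*, named after its values were seen, went the other way, with log2 changes between 1.10 and 2.19 that passed at all 4 timepoints (adjusted p at most 0.0084), and at W2 *Fkbp5* was higher too (2.07, adjusted p = 0.037). Their part in the *Per1* values was not tested.

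*Per2* and *Per3*, which encode the other PER proteins, were near the lowest levels tested, at a mean over the 10 libraries of 1.62 and 1.27 TPM. *Per2* measured 1.23 and 1.02 TPM at D0, 2.37 and 2.71 TPM at W1, and 1.29 and 2.52 TPM at W2. It measured 1.56 and 1.77 TPM at W6 and 0.63 and 1.07 TPM at W12. Its W1 libraries were both above D0 (log2 change 0.74, SE 0.26), but the test did not pass (adjusted p = 0.12). *Per3* measured 1.27 and 1.05 TPM at D0, 0.99 and 0.67 TPM at W1, and 1.92 and 1.88 TPM at W2. It measured 1.53 and 1.90 TPM at W6 and 0.64 and 0.80 TPM at W12. Its highest 4 libraries were those of W2 and W6. The difference between W12 and W6 was −0.66 on the log2 scale (SE 0.22, adjusted p = 0.065), and at these levels a change on the log2(TPM + 1) scale understates the fold.

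*Cry2*, whose protein is a cryptochrome and completes the repressor complex with PER, fell at W6 and W12. It measured 17.4 and 38.4 TPM at D0, 10.5 and 12.8 TPM at W1, and 17.9 and 13.9 TPM at W2. It measured 7.39 and 7.03 TPM at W6 and 3.53 and 5.05 TPM at W12. The 4 late libraries were all below the 6 earlier ones. Mean TPM was 3.87-fold lower at W6 (log2 change −1.71, SE 0.34, adjusted p = 0.0062) and 6.50-fold lower at W12 (log2 change −2.36, SE 0.34, adjusted p = 0.00091) than at D0. Both calls held under every alternative tried, including without D0 replicate 2 (log2 changes −1.16 and −1.81).

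*Cry1*, the other cryptochrome, did not follow *Cry2*. It measured 16.1 and 8.65 TPM at D0, 10.5 and 12.3 TPM at W1, and 4.27 and 4.95 TPM at W2. It measured 4.62 and 16.7 TPM at W6 and 7.76 and 10.2 TPM at W12. Its lowest libraries were both of W2 and W6 replicate 1, while W6 replicate 2 was the highest of all 10. The log2 change was −1.196 (SE 0.48, adjusted p = 0.13) at W2 and lay between −0.37 and −0.05 at the other timepoints, none past the threshold.

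*Bhlhe40* and *Bhlhe41* encode repressors (DEC1 and DEC2) that bind the same E-boxes as CLOCK, and *Bhlhe40* is also known as a gene of the early response to stress and growth signals. *Bhlhe40* was by far the most abundant member, at a mean of 178 TPM over the 10 libraries, followed by *Per1* (21.7), *Tef* (15.0), *Cry2* (13.4), *Clock* (11.6), *Cry1* (9.60) and *Dbp* (6.65). It measured 282 and 564 TPM at D0, 127 and 62.8 TPM at W1, and 184 and 103 TPM at W2. It measured 132 and 84.2 TPM at W6 and 98.5 and 146 TPM at W12. Both D0 libraries lay above all 8 induced ones, which overlapped among themselves. The log2 change from D0 was −2.15 (SE 0.46, adjusted p = 0.021) at W1, −1.53 (SE 0.46, adjusted p = 0.054) at W2, −1.91 (SE 0.46, adjusted p = 0.014) at W6 and −1.72 (SE 0.46, adjusted p = 0.016) at W12. Without D0 replicate 2 it was between −1.65 and −1.23 at W1, W6 and W12, and none of these passed (adjusted p = 0.097, 0.098 and 0.11). The calls were also lost without W1 replicate 2 (−1.65, adjusted p = 0.17), W6 replicate 2 (−1.59, adjusted p = 0.077) and W12 replicate 1 (−1.44, adjusted p = 0.11).

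The fall of *Bhlhe40* went with that of the immediate-early genes, which are transcribed within minutes of a stimulus. The summed TPM of 18 immediate-early and stress genes, led by *Fos*, *Junb* and *Dusp1*, was 34537 and 56673 at D0. It was between 6464 and 14737 in the 8 induced libraries. Of the 18, 14 were lower than at D0 in the W1 comparison and again in the W6 one, 12 at W2 and 15 at W12 (all genes tested: 4.10%, 14.1%, 6.64% and 25.1% lower), while *Hspa1a* was higher at W2 and *Ier3* at W12. The list had a median log2 change between −2.55 and −2.01, and that of all genes tested lay between −0.08 and 0.09. Among all genes tested other than members, those whose log2(TPM + 1) followed *Bhlhe40* most closely over the 10 libraries were *Clpx* (Pearson's r = 0.975), *Btg2* (0.966) and *Junb* (0.965), and the last 2 are on that list. With *Junb*, Spearman's rho was 0.94 and r stayed at 0.93 without the 2 libraries farthest from the median. At each of the 5 timepoints, the replicate with the higher summed list also had more *Bhlhe40*. Whether the early response sets the *Bhlhe40* values was not tested.

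**Figure D2:**
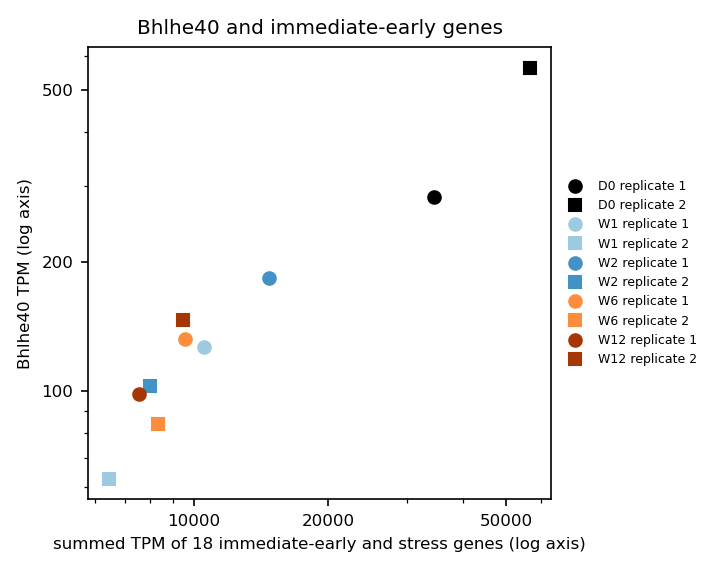
*Bhlhe40* TPM against the summed TPM of 18 immediate-early and stress genes in each of the 10 libraries, both on log axes, with circles for replicate 1 and squares for replicate 2. Both D0 libraries are at the upper right, at 34537 and 56673 summed TPM, and the 8 induced libraries lie at 14737 or less on the horizontal axis.

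*Bhlhe41* was not tested, because its mean of 0.313 TPM was under the minimum of 1 TPM. It measured 0.07 and 0.02 TPM at D0, 0.02 and 0.03 TPM at W1, and 0.10 and 0.15 TPM at W2. It measured 0.41 and 1.02 TPM at W6 and 0.40 and 0.91 TPM at W12. The 4 late libraries were the highest 4. In a fit with no minimum the log2 change was 0.69 at W6 (adjusted p = 0.10) and 0.65 at W12 (adjusted p = 0.10).

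*Dbp* and *Tef* encode D-box-binding activators of the PAR bZIP family, whose transcripts normally rise and fall over the day. *Dbp* measured 1.23 and 6.54 TPM at D0, 1.62 and 1.61 TPM at W1, and 17.67 and 15.53 TPM at W2. It measured 12.4 and 1.70 TPM at W6 and 4.64 and 3.63 TPM at W12. Both W2 libraries were above all others, and the W6 replicates lay on either side of D0 replicate 2. The W2 change from D0 was 2.10 on the log2 scale (SE 0.72) and did not pass (adjusted p = 0.084). Without D0 replicate 2 it was 2.98 (adjusted p = 0.0496). D0 is then 1 library, assumed to vary as the other timepoints do, so that value measures no spread at D0.

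*Tef* was likewise highest at W2. It measured 6.81 and 18.4 TPM at D0, 9.51 and 7.50 TPM at W1, and 35.6 and 36.3 TPM at W2. It measured 15.9 and 7.55 TPM at W6 and 5.38 and 7.18 TPM at W12. Both W2 libraries again lay above all others. *Tef* was 2.85-fold higher in mean TPM at W2 than at D0 (log2 change 1.59, SE 0.43, adjusted p = 0.041), and 3.07-fold lower at W6 than at W2 (log2 change −1.62, SE 0.43, adjusted p = 0.039). The W2 rise was lost without D0 replicate 1, without either W2 replicate and with replicate number as a block (adjusted p = 0.061). It was also lost with no minimum TPM, with median-ratio scaling and in a fit on only the 4 libraries. The W6 fall was likewise lost without W6 replicate 2 (log2 change −1.13), without either W2 replicate and with the block (adjusted p = 0.059). It was also lost with no minimum TPM and in a fit on only the 4 libraries.

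**Figure D3:**
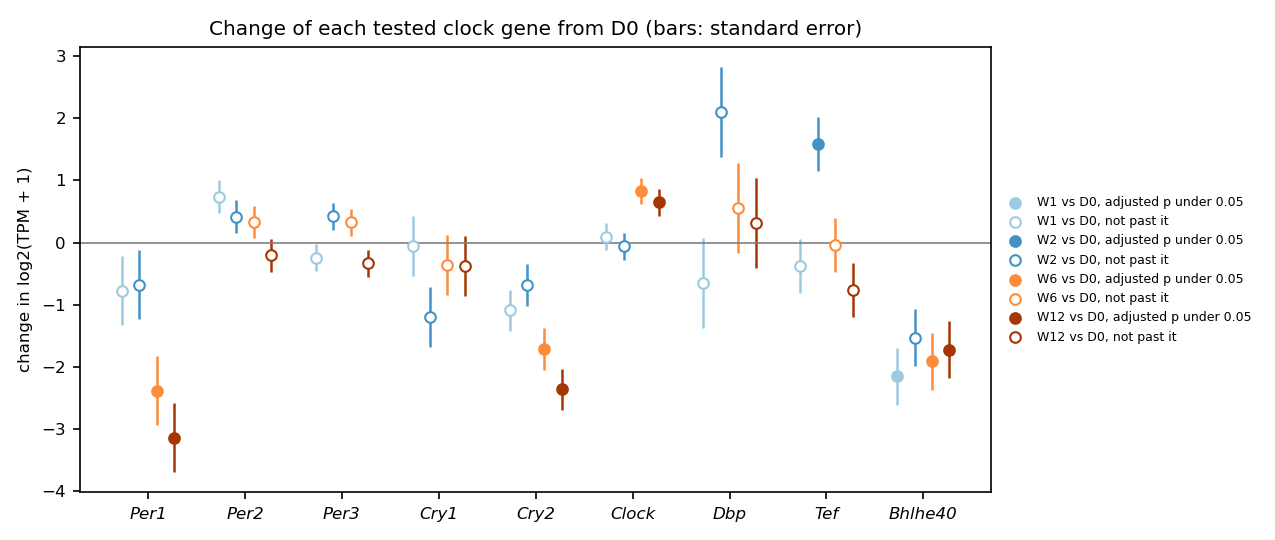
Change in log2(TPM + 1) from D0 for the 9 tested clock genes at W1, W2, W6 and W12, with bars for the standard error and filled points for an adjusted p under 0.05 by limma. *Per1* and *Cry2* fall furthest at W12 (−3.14 and −2.36), *Tef* alone is filled at W2, and *Clock* is filled above zero at W6 and W12.

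Set against all 13110 genes tested, the member counts were as follows. At W1, 1 of 9 tested members was lower and 0 were higher than at D0 (all genes tested: 4.10% lower, 5.79% higher). At W2, 1 of 9 was higher and 0 were lower (9.06% higher, 6.64% lower). At W6, 3 of 9 were lower and 1 was higher (14.1% lower, 18.3% higher). At W12, 3 of 9 were lower and 1 was higher (25.1% lower, 17.9% higher). From W2 to W6, *Clock* was higher and *Tef* lower (7.99% higher, 8.31% lower). From W6 to W12, 0 of 9 passed in limma, where 6.66% of all genes were higher and 13.5% lower. At an unadjusted p under 0.05, *Per3* was the only member, and it passed in 2 alternative fits. The W12 counts were near these shares, and with 9 genes tested nothing particular to the clock genes is drawn from any of the counts. The median log2 change of the tested members was −0.38, −0.06, −0.04 and −0.37 at W1, W2, W6 and W12, beside 0.09, 0.06, 0.08 and −0.08 for all genes tested. With median-ratio scaling the balance of all genes turned: 547 higher and 678 lower at W1 in place of 759 and 537, 937 and 1125 at W2 in place of 1188 and 870, 1912 and 2331 at W6 in place of 2403 and 1848, and 1067 and 845 from W6 to W12 in place of 873 and 1769.

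At D0 and W6, the replicates did not hold some of the clock genes at the same level. This measure was chosen after its values were seen and is given as a description. At D0, replicate 2 exceeded replicate 1 by 1.83 on the log2(TPM + 1) scale for *Per1*, 1.76 for *Dbp*, 1.31 for *Tef* and 1.10 for *Cry2*, while the difference for *Cry1* was −0.82. At W6 the order was turned around for most of them. Replicate 2 minus replicate 1 was −2.31 for *Dbp*, −1.13 for *Per1*, −0.98 for *Tef* and 1.65 for *Cry1*, but −0.06 for *Cry2*. The differences at D0 and W6 were small for *Per2* (−0.14 and 0.11) and *Per3* (−0.15 and 0.20). They were 0.015 and 0.62 for *Clock* and 0.99 and −0.64 for *Bhlhe40*. *Usp2*, which is not a member, differed by 1.54 at D0 but by −0.02 at W6. Among all genes tested, 1.42% differed more than *Dbp* between the D0 replicates and 0.85% between the W6 replicates. Of the 9 tested members, 4 at D0 and 2 at W6 were among the 5% of genes that differed most between replicates, as were 1 at W1, 2 at W2 and 0 at W12.

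*Nr1d1* and *Nr1d2*, which are not members but peak close to *Dbp* in the daily cycle, split the same way. *Nr1d1* measured 4.45 and 80.1 TPM at D0 and 40.0 and 3.79 TPM at W6. At W1 (10.5 and 10.2 TPM), W2 (49.8 and 41.2 TPM) and W12 (9.47 and 13.9 TPM) its replicates were close. The replicate difference of *Nr1d1* was exceeded by 0.16% of genes at D0 and by 0.38% at W6, and that of *Nr1d2* by 0.96% and 2.83%. The ratio of *Nr1d1* to *Arntl* TPM was 0.097 and 1.37 at D0, 0.30 and 0.27 at W1, and 1.76 and 1.52 at W2. It was 1.41 and 0.11 at W6 and 0.47 and 0.70 at W12. By this ratio both of W2, D0 replicate 2 and W6 replicate 1 were the highest libraries, and D0 replicate 1 and W6 replicate 2 the lowest. Other genes gave another order: the ratio of *Dbp* to *Arntl* was 0.11 in D0 replicate 2, below both W12 libraries (0.23 and 0.18), and 0.050 in W6 replicate 2, above both of W1 (0.046 and 0.043). *Arntl* and *Npas2*, which encode the partner of CLOCK and its close relative, did not turn around, with differences of 0.34 and 0.26 for *Arntl* and 1.15 and 0.96 for *Npas2*. *Hlf*, the third member of the *Dbp* family and named here after its values were seen, did not either (1.28 and 1.84). Over all genes the replicates also lay further apart at D0 and W6, with a median absolute difference of 0.31 and 0.32 on the log2 scale against 0.13 to 0.18 at the other timepoints. The sex-linked mismatch of D0 replicate 2 and the *Dcn* level of W6 replicate 2 stand beside these differences, and their part was not tested.

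**Figure D4:**
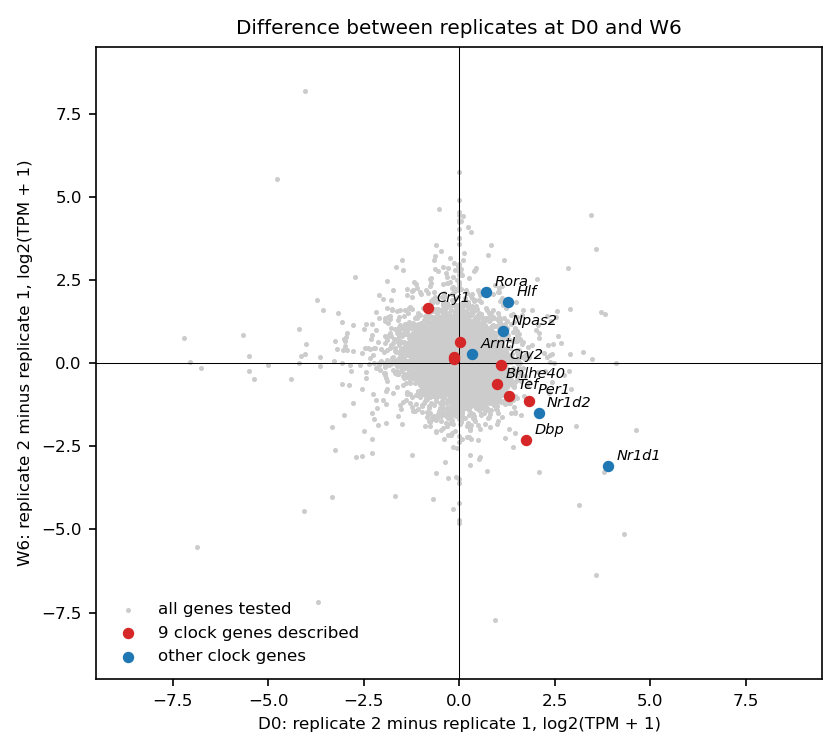
Replicate 2 minus replicate 1 in log2(TPM + 1) at D0 (horizontal) and at W6 (vertical) for all 13110 genes tested (grey), the 9 tested members (red) and 6 other clock genes (blue). *Nr1d1* (3.89 and −3.10), *Nr1d2*, *Dbp*, *Per1* and *Tef* lie at the lower right and *Cry1* (−0.82 and 1.65) at the upper left, and the unlabelled red points near the centre are *Per2*, *Per3* and *Clock*.

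Over the 10 libraries, some of the members ran together or opposite, described here with no test because the libraries of a timepoint are not independent of each other. *Dbp* and *Cry1* ran opposite (Pearson's r = −0.95, Spearman's rho −0.90), and r was −0.92 without the 2 libraries whose *Dbp* lay farthest from its median. *Dbp* ran with *Tef* (r = 0.85, rho 0.71, and 0.65 without 2 libraries) and with *Nr1d1* (r = 0.85, rho 0.76, and 0.81 without 2 libraries). *Per1* ran with *Cry2* (r = 0.93, rho 0.79, and 0.88 without 2 libraries) and against *Clock* (r = −0.84, rho −0.67, and −0.83 without 2 libraries). *Per2* followed no tested member closely (r between −0.50 and 0.33). Among all other genes tested, those nearest to *Dbp* in pattern were *Ptpre* (r = 0.933), *Babam2* (0.908) and *Gm4285* (0.890). *Ptpre* measured 5.20 and 10.03 TPM at D0 and 21.7 and 24.3 TPM at W2. Its W6 replicates were split as those of *Dbp* were, at 21.1 and 10.1 TPM. Since *Ptpre* was picked for its r with *Dbp* over these same libraries, this likeness is a description only. Nearest to *Per3* were *Tmem9* (0.934), *Lrrc56* (0.920) and *Gm19680* (0.916).

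**Figure D5:**
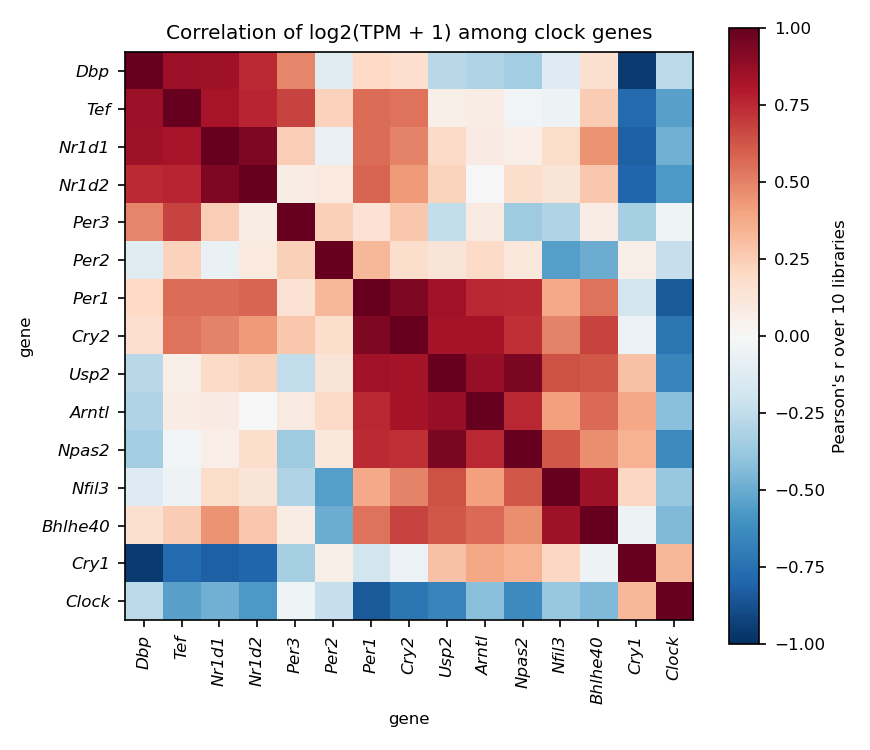
Pearson's r of log2(TPM + 1) over the 10 libraries between the 9 tested members and 6 other clock genes, with red for genes that ran together and blue for genes that ran opposite. *Dbp*, *Tef*, *Nr1d1* and *Nr1d2* form a red block against *Cry1* (−0.95 with *Dbp*), and *Per1*, *Cry2*, *Usp2*, *Arntl* and *Npas2* form another.

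Of 20 other genes of the clock, 18 were tested. At W1, 1 was lower than at D0 and 0 were higher. At W2, 5 were lower and 1 was higher, at W6 6 were lower and 1 was higher, and at W12 8 were lower and 0 were higher. Their median log2 change was −0.32, −0.24, −0.55 and −0.85 at W1, W2, W6 and W12. The shares of all genes tested that were lower are those given above, with 25.1% at W12. Without D0 replicate 2, 0 were lower at W1 and 2 at W2, and 5 were lower in each of the W6 and W12 comparisons, in a fit where 3.3%, 4.39%, 7.86% and 16.8% of all genes tested were lower at W1, W2, W6 and W12.

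Both *Arntl* and *Npas2* fell. *Arntl* measured 45.9 and 58.4 TPM at D0, 35.2 and 37.7 TPM at W1, and 28.3 and 27.1 TPM at W2. It measured 28.3 and 34.2 TPM at W6 and 20.4 and 20.1 TPM at W12. It was lower than at D0 at W2 (log2 change −0.88, adjusted p = 0.0091), W6 (−0.72, adjusted p = 0.012) and W12 (−1.32, adjusted p = 0.00049). *Npas2* measured 9.86 and 23.15 TPM at D0, 9.32 and 11.9 TPM at W1, and 3.74 and 3.34 TPM at W2. It measured 0.34 and 1.62 TPM at W6 and 2.97 and 1.58 TPM at W12. Its log2 change from D0 was −1.84 at W2, −3.11 at W6 and −2.34 at W12 (adjusted p = 0.024, 0.0013 and 0.0032). The calls of *Arntl* at W6 (−0.55, adjusted p = 0.060) and of *Npas2* at W2 (−1.26, adjusted p = 0.11) were lost without D0 replicate 2, and the other 4 held (adjusted p at most 0.037). Without either W2 replicate, neither gene passed at W2. *Arntl2*, the other BMAL gene, did not follow them. It measured 7.80 and 13.1 TPM at D0, between 5.72 and 7.63 TPM at W1 and W2, and between 11.2 and 17.0 TPM at W6 and W12, and passed at no timepoint against D0.

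Of the regulators of *Arntl*, *Rora* encodes an activator that competes with the REV-ERB proteins. It was lower at W2, W6 and W12 (log2 change −2.36, −3.46 and −1.82, adjusted p = 0.027, 0.0030 and 0.031). Its W6 replicates lay apart, at 4.90 and 24.8 TPM. The W6 change was −2.40 without W6 replicate 1 and −4.53 without W6 replicate 2. Of the *Rora* calls the W6 one alone held without D0 replicate 2 (−3.11, adjusted p = 0.025), with adjusted p = 0.12 at W2 and 0.17 at W12, and its W2 and W12 calls were also lost without either replicate of that timepoint. *Nfil3*, which encodes a repressor at D-boxes, was lower at W1, W2 and W6 (log2 change −1.71, −1.59 and −2.36, adjusted p = 0.021, 0.021 and 0.0021). It likewise kept the W6 call alone without D0 replicate 2 (−1.96, adjusted p = 0.016), with −1.31 at W1 (adjusted p = 0.096) and −1.18 at W2 (adjusted p = 0.10). The W1 call was also lost without W1 replicate 2, and the W2 call without either W2 replicate. *Nr1d1* and *Nr1d2* passed at no timepoint, with standard errors of 1.21 and 0.64. *Usp2*, a deubiquitinase gene driven by the clock in many tissues, measured 30.2 and 89.9 TPM at D0 and 6.23 and 7.34 TPM at W2. At W6 and W12 it measured between 2.99 and 3.71 TPM. Its log2 change was −2.78 at W2, −3.73 at W6 and −3.61 at W12 (adjusted p = 0.0031, 0.00047 and 0.00030). Without D0 replicate 2 the *Usp2* changes were −2.01 at W2, −2.96 at W6 and −2.84 at W12. *Timeless*, which encodes a protein with a main role at the replication fork in mammals, was higher at W6 than at D0 (log2 change 1.78, adjusted p = 0.0080), also without D0 replicate 2 (1.23, adjusted p = 0.040). Its W2 change of 1.35 (adjusted p = 0.040) did not pass without D0 replicate 2 (0.81, adjusted p = 0.16), without either W2 replicate or with the replicate block.

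*Btrc*, an adaptor for PER degradation, was lower at W6 and W12 (log2 change −1.29 and −1.08, adjusted p = 0.0030 and 0.0044), also without D0 replicate 2 (adjusted p = 0.019 and 0.027). At W12 the kinase genes *Csnk1d* and *Gsk3b* were lower too (log2 change −0.57 and −1.09, adjusted p = 0.042 and 0.0023), and neither passed at W6. The change of *Gsk3b* without D0 replicate 2 was −0.84 (adjusted p = 0.010) and that of *Csnk1d* −0.43, which did not pass (adjusted p = 0.19). The *Csnk1d* call was also lost without either W12 replicate, with median-ratio scaling and with the replicate block. *Csnk1e*, a related kinase gene, did not pass against D0 (log2 change 0.84 at W6, adjusted p = 0.067, and −0.19 at W12, adjusted p = 0.65). From W2 to W6 *Arntl2* was higher, a call lost with median-ratio scaling, with the replicate block and without either W2 replicate, and from W6 to W12 *Nfil3* was higher and *Arntl*, *Csnk1e* and *Gsk3b* were lower. The median of all genes tested was −0.16 on the log2 scale from W6 to W12, and the 3 lower calls were lost with median-ratio scaling, with quantile normalization and in a fit on only the 4 libraries. All 4 calls of that comparison were lost without either W12 replicate.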

How the data were processed

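RNA-seq libraries of sorted EpdSCs from 5 timepoints, 2 biological replicates each, were used. The authors deposited TPM per gene, quantified with Salmon 1.4.0 and summed to genes with Tximport 1.12.3 on a GENCODE annotation of GRCm38 extended by the transgene. Each library sums to 1e+06 TPM, so depth and counting error are unknown, and P values cover the spread between replicates only. A second table, of the authors' own fold changes and p-values between embryonic placode cells, was not used here.

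Tests were run on the 13110 of 54332 genes whose mean reached 1 TPM, as differences on log2(TPM + 1) with limma 3.58.1 in R 4.3.3, fitting 5 timepoint means over all 10 libraries, with a variance trend and Benjamini-Hochberg adjustment over all genes tested. The study tested counts with DESeq2, which TPM do not permit. Folds are ratios of mean TPM, and fitted changes understate those of low genes. The script was tested on simulated data. Alternatives were a pseudocount of 0.1, no minimum or 5 TPM, median-ratio or quantile scaling, no variance trend, a replicate block, only the 4 libraries compared, and leaving out each replicate. Coordinates came from GENCODE M21 (GRCm38) and promoters from RefSeq.

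The members and gene lists were chosen with earlier results of these data known. All 10 members are named, as are other clock genes that passed in a comparison with D0, with *Arntl*, *Npas2*, *Nr1d1* and *Nr1d2* in any case, at most 3 genes of each other list, and the 3 genes nearest in pattern to *Dbp*, *Per3* and *Bhlhe40*. Names outside this rule are said to be so, complete a small count or are defining markers of another cell type. The values of 1 gene that this rule takes in are not reported here.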

Additional observations from a re-analysis of the deposited data

How the results depend on the processing

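With 2 libraries a timepoint, most counts of members changed when single libraries were left out. The number of all genes called changed with each setting too, so nothing particular to the members is drawn from these counts. With no minimum TPM the counts were 0 at W1, 0 at W2, 1 at W6, 2 at W12 and 0 from W2 to W6. Of all 38965 genes in that fit, 352 were higher and 254 lower at W1, and 598 and 413 at W2. The numbers were 1866 and 1236 at W6, 2652 and 2632 at W12, and 514 and 426 from W2 to W6. Fitted on only the 4 libraries compared, the member counts were 0 at W1, 0 at W2, 2 at W6 and 1 from W2 to W6 (*Cry2*, lower). Over all genes in those fits, 361 were higher and 298 lower at W1, and 739 and 543 at W2. The numbers were 682 and 657 at W6, and 614 and 595 from W2 to W6. Median-ratio scaling gave 0 at W2, and quantile normalization and a fit without the variance trend gave 1 from W6 to W12 (*Per3*, lower). Leaving out 1 library leaves its timepoint with 1 library, which is assumed to vary like the others. It gave counts of 0 to 3 at W1, 0 to 3 at W2, 1 to 4 at W6, 2 to 4 at W12 and 0 to 5 from W2 to W6, and 0 in each case from W6 to W12. Without D0 replicate 2 none remained at W1, *Dbp* and *Tef* were higher at W2, *Cry2* was lower at W6, and *Cry2* and *Per1* were lower at W12. Without D0 replicate 1, *Bhlhe40*, *Cry2* and *Per1* were lower at W1 and at W2, and *Tef* was lower at W12. Without W1 replicate 2 none passed at W1, and without either W2 replicate none passed at W2 or from W2 to W6. Without W6 replicate 2, *Cry1* and *Cry2* were lower at W6 and none passed from W2 to W6, where leaving out W6 replicate 1 gave *Clock* and *Cry1* higher and *Per1*, *Dbp* and *Tef* lower. Without W12 replicate 1, *Cry2* and *Per1* were left at W12. The replicate numbers share no stated origin, and same-numbered libraries deviated together with correlations of −0.13 to 0.09. The replicate block gave 0 at W2 and 1 from W2 to W6, and the other counts were as reported. Crossing the numbers, a choice made after seeing the data, gave 1 at W1, 4 at W6 and 0 from W6 to W12. No call changed sign. Changes that did not pass turned sign in some settings, the cause of which was not tested: *Clock* at W1 (−0.014 with median-ratio scaling) and from W6 to W12 (0.0044 with quantile normalization), and *Cry1* from W6 to W12 (0.016 with a pseudocount of 0.1, 0.13 with median-ratio scaling and 0.16 with quantile normalization). Others turned when 1 library was left out, over the log2 ranges that follow. At W1 these were −0.46 to 0.36 for *Cry1*, −1.53 to 0.23 for *Dbp*, −1.69 to 0.14 for *Per1*, −1.04 to 0.28 for *Tef*. At W2 these were −1.59 to 0.24 for *Per1*. At W6 these were −1.19 to 0.46 for *Cry1*, −0.60 to 1.70 for *Dbp*, −0.69 to 0.62 for *Tef*. At W12 these were −0.78 to 0.037 for *Cry1*, −0.56 to 1.195 for *Dbp*. From W2 to W6 these were −0.79 to 0.035 for *Bhlhe40*, −0.40 to 0.22 for *Per2*. From W6 to W12 these were −0.83 to 0.82 for *Cry1*, −1.39 to 0.92 for *Dbp*, −0.14 to 0.51 for *Bhlhe40*, −0.49 to 0.13 for *Clock*. Median-ratio scaling moved the median change of all genes from 0.09 to −0.0097 at W1, from 0.08 to −0.05 at W6 and from −0.16 to −0.02 from W6 to W12. Depth cannot be read from TPM, so whether the low levels of *Per2*, *Per3* and *Bhlhe41* rest on few reads is unknown.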

Other observations

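Values for other gene lists across the same libraries follow, beside the shares of all genes tested that passed. Of 12 hypoxia-responsive genes, 7 were lower and 2 higher at W6 than at D0 (median log2 change −1.01), where 14.1% of all genes were lower and 18.3% higher. At W12, 4 were higher and 1 lower than at D0 (median 0.20), and 9 were higher at W12 than at W6 (median 1.21), where 6.66% of all genes were higher. The 3 most abundant of them, *Ldha*, *Slc2a1* and *Pgk1*, were not among the 9. Of 8 basal keratinocyte genes, 7 were lower at W6 and 5 at W12 (1 was higher), and *Krt15* went from 11241 and 11928 TPM at D0 to 429 and 1350 TPM at W6. Of 10 proliferation genes, 4 were higher at W6 and 2 at W12, with 0 lower. Of 7 genes of differentiating keratinocytes, 4 were higher at W6 and 0 lower, and 3 were higher and 1 lower at W12. The list of 6 genes of hair follicle stem cells had 2 higher and 0 lower at W6 (median 0.77), and 1 higher and 2 lower at W12 (median −0.51). At W12, 25.1% of all genes were lower and 17.9% higher. Of the 10 tested genes with known E-box or D-box control, which hold *Dbp*, *Tef* and *Per1*, 2 were lower and 0 higher at W12, and of 6 genes that peak in the opposite phase 2 were lower and 1 higher. *Arntl*, *Nfil3* and *Npas2* of those 6 were lower at W2 (median of the list −1.04, with 6.64% of all genes lower). They were lower again at W6, where *Clock* was higher (median −0.70, with 14.1% of all genes lower and 18.3% higher).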
